A study of Mus musculus with 6 samples.

Results

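Endothelial identity genes are the genes by which cells that line blood and lymph vessels are recognised, and 37 of them were taken by symbol from the authors' deposited table, which lists 23361 genes. All 37 were found, 1 line each, and all 37 were tested by the authors, among 14858 tested genes in all. The RNA came from cells of hindlimb muscle of mice aged 4 months, digested with collagenase and sorted as positive for the surface proteoglycan Sdc4, and the labels name no other sorting marker. The series has 3 AUF1-null and 3 wild-type samples, all called primary satellite cells (the stem cells of muscle), from mice bred through C57BL/6 with a 129 background. AUF1, encoded by Hnrnpd, is a protein that binds AU-rich mRNAs and affects their decay.

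The authors' deposited table holds 1 level per gene for each of 2 conditions, on the FPKM scale (fragment counts scaled to transcript length and library size), pooled over the samples; the headings name no unit, and this is the scale that Cuffdiff writes. Levels of single samples were not analysed here. No SD or n can therefore be given beside a level, and no replicate spread could be set against a difference other than through the authors' own Cuffdiff p-value. The conditions are named q2 and q1, and neither labels nor headings tie AUF1-null to either name. The deposited table's own title has WT ahead of KO, but does not link that order to q1 and q2. Every difference is therefore that of q2 relative to q1, as log2 of q2 over q1, and not that of a genotype. Nor does the targeted gene settle it: Hnrnpd was listed at 5.59 FPKM in q2 and 7.50 FPKM in q1 (log2 -0.42, q = 0.999 by Cuffdiff in the authors' deposited table). A gene was called where the deposited q, the p-value adjusted over all tested genes, lay below 0.05.

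Endothelial cells hold together through junctional cadherin, claudin and immunoglobulin-like proteins, and carry caveolae and diaphragms through which solutes and lipids pass. Their identity is kept by transcription factors of the ETS, SoxF and Tal1 families, which act on many of the surface genes. In muscle, most of these cells form capillaries that take up fatty acids, while venules carry the adhesion molecules that capture leukocytes.

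Endothelial transcripts were abundant in both conditions, and nearly all of the 37 lay lower in q2. The median level of the 37 genes was 85.7 FPKM in q2 and 139.6 FPKM in q1, against 7.60 FPKM in both conditions over all tested genes. Of the 37, 35 had a log2 fold change below 0, and 2 (Rgcc and Gpihbp1) lay above it, where 51.3% of all tested genes lay below 0. The median log2 fold change was -0.42 over the 37 genes and -0.01 over all tested genes. Plvap alone passed the test, lower in q2, which is 1 of 37 genes against 0.114% of all tested genes called lower and 0.612% called in either direction. By the unadjusted Cuffdiff p, 9 of 37 lay below 0.05, all 9 of them lower in q2, where 2.27% of all tested genes were lower and 5.99% differed in either direction at that threshold. The 8 of these other than Plvap did not pass the adjustment. In bulk RNA, fewer endothelial cells and less of these transcripts per cell cannot be told apart.

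**Figure D1:**
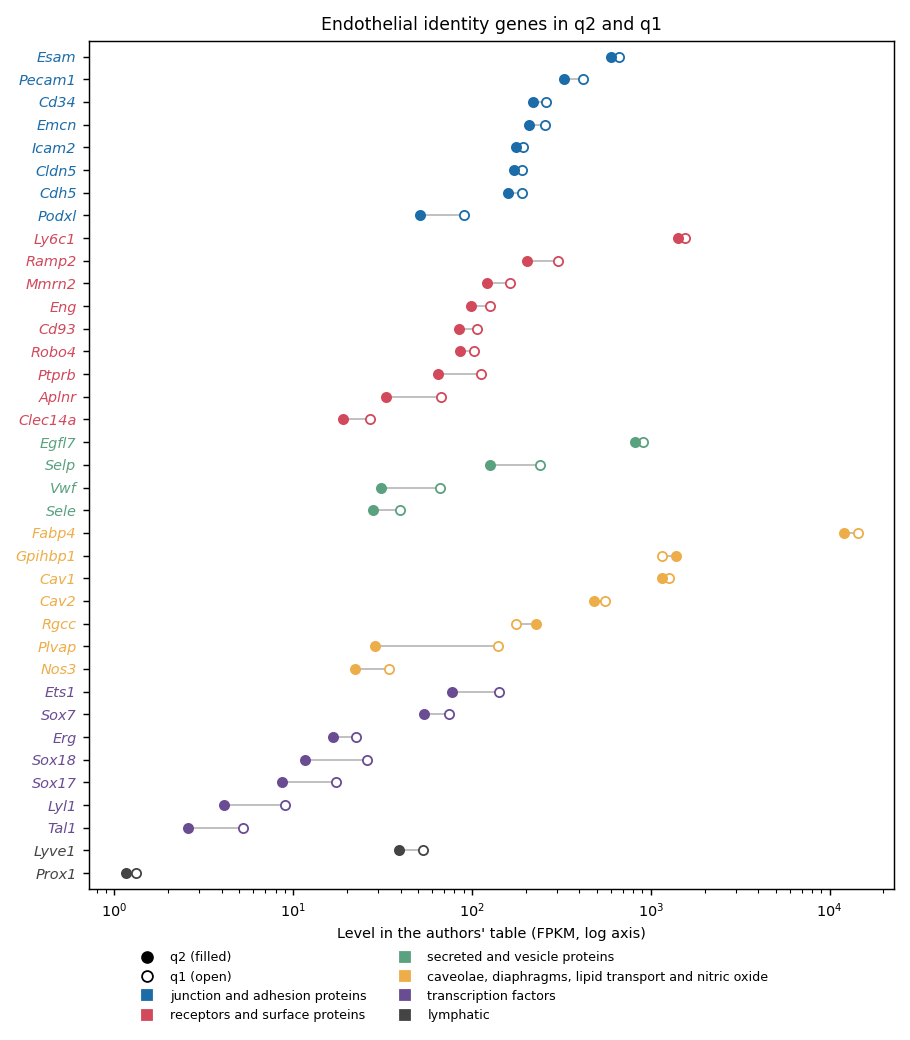
Level of each of the 37 endothelial genes in FPKM on a log axis, filled points for q2 and open points for q1, joined by a line and coloured by role. The filled point lies left of the open one for 35 genes and right of it for Rgcc and Gpihbp1, and the longest line is that of Plvap, at 28.8 FPKM in q2 and 139.6 FPKM in q1.

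These levels put endothelial RNA among the most abundant in cells sorted as satellite cells. Fabp4, a fatty acid carrier of muscle capillaries and of fat cells, had the highest level of all tested genes in both conditions, 12032 FPKM in q2 and 14386 FPKM in q1 in the authors' deposited table. Of the 37 genes, 21 in q2 and 27 in q1 ranked in the top 10% of tested genes. Together the 37 made up 2.99% of the summed FPKM of the table in q2 and 3.80% in q1; without Fabp4 the shares were 1.24% and 1.54% in q2 and q1. Satellite cell genes were present as well. Pax7, the transcription factor that defines these cells, was the lowest of 12, at 0.85 FPKM in q2 and 1.16 FPKM in q1 in the authors' deposited table. Myf5 was at 17.8 FPKM in q2 and 16.7 FPKM in q1, Itga7 at 26.3 FPKM in q2 and 31.8 FPKM in q1, and the sorting marker Sdc4, the highest of them, at 269.7 FPKM in q2 and 173 FPKM in q1 in the authors' deposited table. The junctional markers Pecam1, Cdh5, Cldn5 and Esam were all at 160.3 FPKM or more in both conditions. Other members were low, with 4 of the 37 under 10 FPKM in q2 and 3 in q1, among them Prox1, Tal1 and Lyl1 in both. A level alone does not show which cells a transcript came from. How many of the sorted cells were endothelial was not tested.

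Among genes of caveolae, diaphragms and lipid transport, Plvap fell in q2, and no other gene of the group was called. Plvap, at chr8:71497753-71511769 (GRCm38), encodes the protein from which the diaphragms of caveolae and fenestrae are built. It was listed at 28.8 FPKM in q2 and 139.6 FPKM in q1 in the authors' deposited table, a log2 fold change of -2.28 or a 4.85-fold lower level in q2 (Cuffdiff p = 5e-05, q = 0.0108). That p is the smallest in the table and is shared by several other genes, among them S100a8 and Ly6c2. By level, Plvap held rank 3015 among tested genes in q2 and rank 729 in q1. Relative to the median of the 37 genes its log2 fold change was -1.86. The next lowest gene, Sox18, had a log2 fold change of -1.17.

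The caveolins lay close to 0. Cav1, the main coat protein of caveolae, was at 1156 FPKM in q2 and 1266 FPKM in q1 (log2 -0.13, Cuffdiff q = 0.999 in the authors' deposited table). Its partner Cav2 was at 482 FPKM in q2 and 558 FPKM in q1 (log2 -0.21, q = 0.999 in the authors' deposited table). These 3 genes of the caveola thus had log2 fold changes from -2.28 for Plvap to -0.13 for Cav1. Differences between genes were not tested.

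The 2 genes above 0 are both known from capillary endothelium. Gpihbp1, which carries lipoprotein lipase to the capillary lumen, was at 1390 FPKM in q2 and 1161 FPKM in q1 (log2 0.26, Cuffdiff q = 0.999 in the authors' deposited table). Rgcc, which encodes a regulator of the cell cycle, was at 229 FPKM in q2 and 178 FPKM in q1 (log2 0.36, q = 0.999 in the authors' deposited table). Neither passed the test. Fabp4 lay below 0 at log2 -0.26, and Nos3, the endothelial nitric oxide synthase, was at 22.2 FPKM in q2 and 34.5 FPKM in q1 (log2 -0.64, q = 0.999 in the authors' deposited table). The position of Nos3 overlaps that of Atg9b, and as no source used here gives the strand setting, shared reads make its level uncertain.

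**Figure D2:**
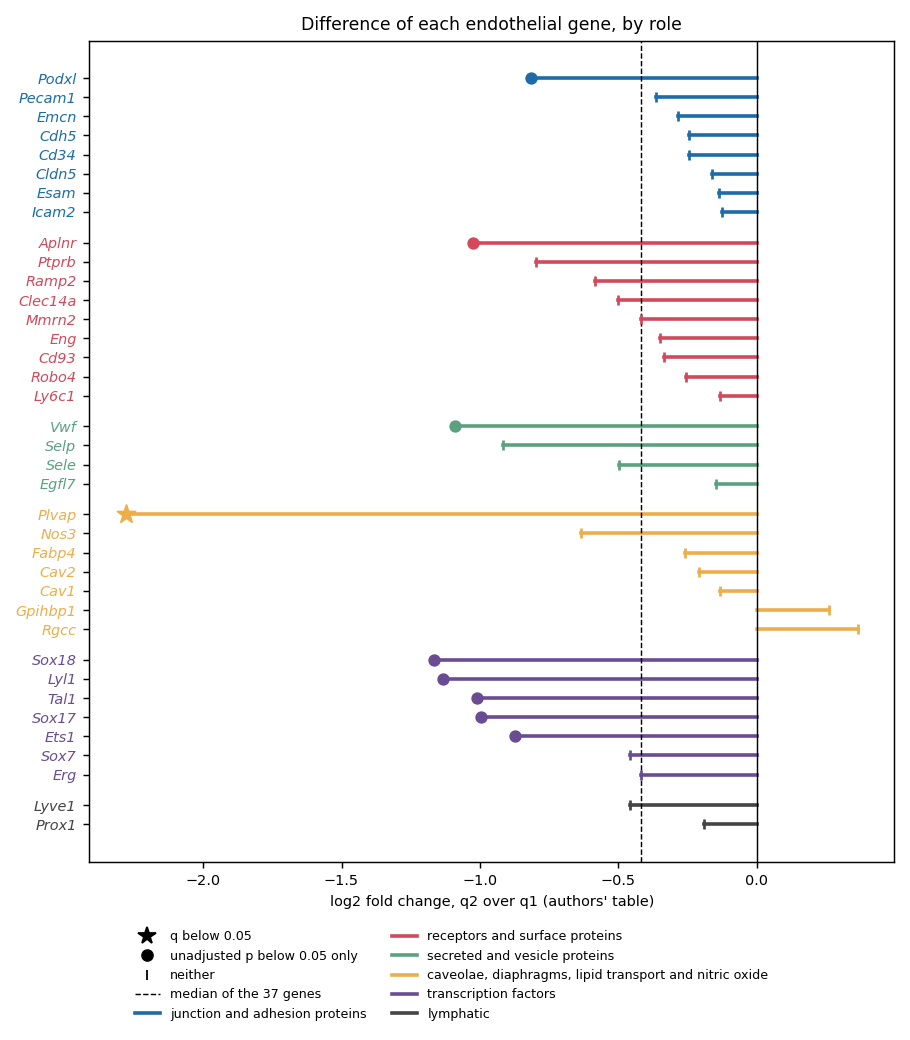
log2 fold change of q2 over q1 for each of the 37 genes, grouped by role; a star marks q below 0.05, a round point an unadjusted p below 0.05 only, and the dashed line the median of -0.42. Plvap carries the only star, and 5 of the 8 round points are transcription factors.

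Transcription factors as a group lay furthest from 0. The 7 factors had a median log2 fold change of -0.99, and none was called. All 7 were below 0, where 51.3% of all tested genes were. By the unadjusted Cuffdiff p, 5 of 7 lay below 0.05, where 2.27% of all tested genes were lower at that threshold. Together they summed to 175 FPKM in q2 and 296 FPKM in q1, a q2 level 0.592 times that of q1. For all other role groups the same ratio of sums lay between 0.731 and 0.866.

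The SoxF factors Sox7, Sox17 and Sox18, which specify arteries and lymphatic vessels during development, were not equally low. Sox18 was at 11.6 FPKM in q2 and 26.1 FPKM in q1 (log2 -1.17, p = 0.0108, q = 0.473 by Cuffdiff in the authors' deposited table). Sox17 was at 8.70 FPKM in q2 and 17.3 FPKM in q1 (log2 -0.99, p = 0.0251, q = 0.663 in the authors' deposited table). Sox7, the most abundant of them, was at 54.3 FPKM in q2 and 74.5 FPKM in q1 (log2 -0.46, p = 0.221, q = 0.999 in the authors' deposited table). The order of the levels was Sox7, then Sox18, then Sox17 in both conditions.

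Of the ETS factors, Ets1 showed the wider gap. Ets1 was at 77.3 FPKM in q2 and 141.5 FPKM in q1 (log2 -0.87, p = 0.0252, q = 0.663 in the authors' deposited table); it is also a factor of lymphocytes. Erg, which maintains junctional gene expression in endothelium, was at 16.8 FPKM in q2 and 22.5 FPKM in q1 (log2 -0.42, p = 0.249, q = 0.999 in the authors' deposited table). The related factor Fli1, which is not among the 37, was at 192 FPKM in q2 and 208 FPKM in q1 (log2 -0.12, q = 0.999 in the authors' deposited table). All 8 tested T and natural killer cell markers were above 0. By the unadjusted Cuffdiff p, 7 of 8 lay below 0.05, where 3.72% of all tested genes were higher at that threshold. The 9 in the table summed to 49.3 FPKM in q2 and 8.92 FPKM in q1. Of the 8, 1 was called, where 0.498% of all tested genes were called higher. It was Nkg7, of cytotoxic granules, at 27.6 FPKM in q2 and 3.37 FPKM in q1 (log2 3.04, Cuffdiff q = 0.0275 in the authors' deposited table). The part of lymphocytes in the Ets1 value was not tested.

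Tal1 and Lyl1 are close relatives of the basic helix-loop-helix family that act in blood stem cells and endothelium. Tal1 was at 2.60 FPKM in q2 and 5.24 FPKM in q1 (log2 -1.01, p = 0.0345, q = 0.741 in the authors' deposited table). Lyl1 was at 4.12 FPKM in q2 and 9.05 FPKM in q1 (log2 -1.13, p = 0.0348, q = 0.744 in the authors' deposited table). Both were low, and both had about the same distance between conditions without a call.

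The sequences before the starts of these 2 genes are shown because they are the only members with an unadjusted p below 0.05 for which the RefSeq promoter table (GRCm38.p6) held an entry. Each is the 250 bases before an annotated start, 5′ to 3′ on the gene's strand, here the plus strand, at chr8:84701207-84701456 for Lyl1 and chr4:115056176-115056425 for the first of 2 starts of Tal1. Capitals mark a match to the ETS letters AGGAAG or CGGAAG, the SOX letters ACAAAG or the GATA letters AGATAA, searched on both strands.
Lyl1: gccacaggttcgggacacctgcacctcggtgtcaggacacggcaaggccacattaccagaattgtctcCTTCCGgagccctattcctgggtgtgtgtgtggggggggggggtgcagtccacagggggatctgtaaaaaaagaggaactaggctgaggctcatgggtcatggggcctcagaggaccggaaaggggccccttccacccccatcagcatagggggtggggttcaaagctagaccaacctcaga
Tal1: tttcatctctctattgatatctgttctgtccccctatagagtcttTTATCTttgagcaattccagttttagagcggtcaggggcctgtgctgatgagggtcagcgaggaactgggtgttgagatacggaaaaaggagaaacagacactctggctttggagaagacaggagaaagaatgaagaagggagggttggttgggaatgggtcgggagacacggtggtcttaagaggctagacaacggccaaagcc
In Lyl1 the match is to the ETS letters on the opposite strand, beginning 182 bases before the start. In Tal1 it is to the GATA letters on the opposite strand, beginning 205 bases before the start. The 250 bases before the other start of Tal1 held none of these letters.

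Promoters were found in that table for 17 of the 37 genes, with 25 annotated starts. Over the full 300 bases from 250 before to 50 after the start, 12 of 17 genes held the ETS letters (70.6%), against 49.8% of all 27025 genes in the table. Counted by annotated start, which does not favour genes with several, 13 of 25 held them, against 46.5% of all 32851. The SOX letters were held by 4 of 17 genes (23.5%), against 21.0% of all genes, and the GATA letters by 2 of 17 (11.8%), against 12.7%. A match is a description of the letters and shows no binding. To show how the letters sit, 1 stretch around an ETS match is printed for each of 6 surface and secreted genes. Eng and Ly6c1, which are also surface genes with such matches, are not printed. Each stretch runs 5′ to 3′ on the gene's own plus strand, with the match in capitals.
Selp, chr1:164115190-164115215: gcaacagctcCTTCCTagctgccaac
Sele, chr1:164048159-164048184: tatgactcacAGGAAGccagctcccc
Robo4, chr9:37401913-37401938: agggccaggcAGGAAGcatccgtttc
Egfl7, chr2:26583775-26583800: gaacacacacAGGAAGtccggcggga
Emcn, chr3:137340894-137340919: agaagggtctCTTCCTgttcaaatcc
Cd34, chr1:194938669-194938694: tacacagtggCTTCCTgccacactta
The first base of the printed match lay 64 bases before the start in Selp, 65 in Sele and 49 in Robo4. In Egfl7 it lay 80 bases before the second of 3 starts, and in Emcn 174 and in Cd34 142 bases before the start. In the printed stretches of Sele, Robo4 and Egfl7 the letters lie on the gene's strand. In those of Selp, Emcn and Cd34 they lie on the opposite one. Emcn and Egfl7 hold further matches that are not printed. In Emcn 1 begins 93 bases before the start on the gene's strand. In Egfl7 matches begin 216 and 49 bases before its first start on the opposite strand, and 89 bases before it on the gene's strand. The log2 fold changes of the 6 printed genes ranged from -0.92 for Selp to -0.15 for Egfl7.

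Of the secreted and vesicle proteins, Vwf lay lowest and Egfl7 closest to 0. Vwf, the von Willebrand factor stored in endothelial vesicles and platelets, was at 31.3 FPKM in q2 and 66.5 FPKM in q1 (log2 -1.09, p = 0.0105, q = 0.467 by Cuffdiff in the authors' deposited table). Selp, the P-selectin that shares these vesicles, was at 127 FPKM in q2 and 239 FPKM in q1 (log2 -0.92, p = 0.0719, q = 0.947 in the authors' deposited table). Its position overlaps F5 and Gm16548, so its level may include shared reads. Sele, the E-selectin induced by cytokines, was at 28.0 FPKM in q2 and 39.5 FPKM in q1 (log2 -0.50, p = 0.160, q = 0.999 in the authors' deposited table). All 4 members of this role were lower in q2 and none was called. Egfl7, which encodes a secreted factor of the vessel wall and hosts the microRNA gene Mir126 within its position, was at 822 FPKM in q2 and 911 FPKM in q1 (log2 -0.15, q = 0.999 in the authors' deposited table).

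Receptors and surface proteins, a group that here also holds the matrix protein gene Mmrn2, were all lower in q2, with Aplnr lowest. Aplnr, the apelin receptor of venous and sprouting endothelium, was at 33.2 FPKM in q2 and 67.5 FPKM in q1 (log2 -1.03, p = 0.0026, q = 0.227 by Cuffdiff in the authors' deposited table). After Plvap it had the smallest p of the 37. Ptprb, the phosphatase that restrains the angiopoietin receptor, was at 65.1 FPKM in q2 and 113 FPKM in q1 (log2 -0.80, p = 0.0628, q = 0.901 in the authors' deposited table). Ramp2, a partner of the adrenomedullin receptor, was at 202 FPKM in q2 and 303 FPKM in q1 (log2 -0.58, p = 0.131, q = 0.999 in the authors' deposited table). The remaining 6 were closer to 0.

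Several of those remaining genes act in the same signalling units. Clec14a, a C-type lectin that binds the matrix protein encoded by Mmrn2, was at 19.0 FPKM in q2 and 26.9 FPKM in q1 (log2 -0.50 in the authors' deposited table). Mmrn2 itself was at 122 FPKM in q2 and 163 FPKM in q1 (log2 -0.42 in the authors' deposited table), and Cd93, a related lectin that also binds it, was at 84.5 FPKM in q2 and 106 FPKM in q1 (log2 -0.33). This ligand and its binding partners had similar differences, none of them called. Eng, the endoglin coreceptor of the TGF-beta family, was at 98.7 FPKM in q2 and 126 FPKM in q1 (log2 -0.35 in the authors' deposited table; its position overlaps Fpgs), and Robo4, a guidance receptor of quiescent vessels, at 85.7 FPKM in q2 and 102 FPKM in q1 (log2 -0.26).

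Ly6c1, a surface protein of capillary endothelium, was at 1422 FPKM in q2 and 1561 FPKM in q1 (log2 -0.13, Cuffdiff q = 0.999 in the authors' deposited table). Its near copy Ly6c2, a gene of monocytes and other leukocytes, was at 124 FPKM in q2 and 11.0 FPKM in q1 (log2 3.50, q = 0.0108 in the authors' deposited table). Reads can be shared between the copies, so both levels are uncertain.

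Junction and adhesion genes lay nearer to 0 than the transcription factors. The 8 genes had a median log2 fold change of -0.25, and all 8 were below 0, but none was called. Pecam1, the platelet endothelial adhesion molecule, was at 327 FPKM in q2 and 421 FPKM in q1 (log2 -0.37, Cuffdiff p = 0.387 in the authors' deposited table). Cdh5, the cadherin of endothelial junctions, was at 160.3 FPKM in q2 and 190.1 FPKM in q1 (log2 -0.25, p = 0.539 in the authors' deposited table). Cldn5, the tight junction claudin, was at 171 FPKM in q2 and 191 FPKM in q1 (log2 -0.16, p = 0.637 in the authors' deposited table). Of the defining junction proteins, none had an unadjusted p below 0.05.

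The immunoglobulin-like adhesion proteins Esam and Icam2 were closer still. Esam was at 602 FPKM in q2 and 663 FPKM in q1 (log2 -0.14), and Icam2 at 177 FPKM in q2 and 193 FPKM in q1 (log2 -0.13), in the authors' deposited table. The sialomucins ranged more widely. Podxl, the podocalyxin of the vessel lumen, was at 51.3 FPKM in q2 and 90.2 FPKM in q1 (log2 -0.82, p = 0.0420, q = 0.782 in the authors' deposited table). Emcn, endomucin, was at 209 FPKM in q2 and 255 FPKM in q1 (log2 -0.29 in the authors' deposited table). Cd34, which satellite cells and other progenitors also carry, was at 219 FPKM in q2 and 259.5 FPKM in q1 (log2 -0.25 in the authors' deposited table), and its position overlaps Gm16897. Podxl was thus the only one of the 8 genes with an unadjusted p below 0.05.

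The lymphatic genes differed widely in level. Prox1, the factor that specifies lymphatic endothelium, was at 1.16 FPKM in q2 and 1.33 FPKM in q1 (log2 -0.19, Cuffdiff q = 0.999 in the authors' deposited table), the lowest of the 37 in both conditions. Lyve1, a hyaluronan receptor of lymphatic vessels and of some tissue macrophages, was at 38.9 FPKM in q2 and 53.5 FPKM in q1 (log2 -0.46, p = 0.271 in the authors' deposited table). Markers of such macrophages were present too, with Mrc1 at 38.7 FPKM in q2 and 39.3 FPKM in q1 and Cd163 at 13.1 FPKM in q2 and 23.1 FPKM in q1 in the authors' deposited table. The list ranged up to F13a1, at 81.3 FPKM in q2 and 119 FPKM in q1 in the authors' deposited table. Of 8 tested markers, 7 lay below 0, where 51.3% of all tested genes did, and the median log2 fold change was -0.26. The unadjusted Cuffdiff p lay below 0.05 for 1 of 8 (Cd163), which was lower in q2. At that threshold, 2.27% of all tested genes were lower. None of the 8 markers was called, and they summed to 378 FPKM in q2 and 467 FPKM in q1. Their part in the Lyve1 value was not tested. Of the other lymphatic genes, Flt4, the receptor for VEGF-C, was at 13.3 FPKM in both q2 and q1 and Pdpn at 18.8 FPKM in q2 and 11.0 FPKM in q1 (log2 0.77, p = 0.0867 in the authors' deposited table). Mmrn1, a matrix protein gene of lymphatic vessels and platelets, was at 10.4 FPKM in q2 and 16.5 FPKM in q1 (log2 -0.66, p = 0.109 in the authors' deposited table). None of the 4 tested lymphatic genes was called or had an unadjusted p below 0.05.

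The more abundant genes of the 37 tended to lie closer to 0, although Prox1, the least abundant, lay at -0.19. Across the 37 genes, the Spearman correlation of mean level and log2 fold change was 0.67, given as a description since all points come from the same pooled libraries; across all tested genes with both levels above 0 it was 0.03. The 19 genes with a mean of at least 100 FPKM had a median log2 fold change of -0.25, where the 1013 tested genes at that level had 0.05. The 18 genes below 100 FPKM had a median of -0.72, where the 13766 tested genes at that level had -0.02. That boundary was chosen after the values were seen. At a mean of at least 10 FPKM, 32 of 34 genes lay below 0, against 49.6% of tested genes at that level, and 7 of 34 had an unadjusted p below 0.05 in that direction, against 2.07%. A log2 fold change of -1 or lower was found for 6 of 37 genes, against 4.87% of all tested genes. They were Plvap, Aplnr, Vwf, Sox18, Lyl1 and Tal1, and of these Plvap alone was called.

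**Figure D3:**
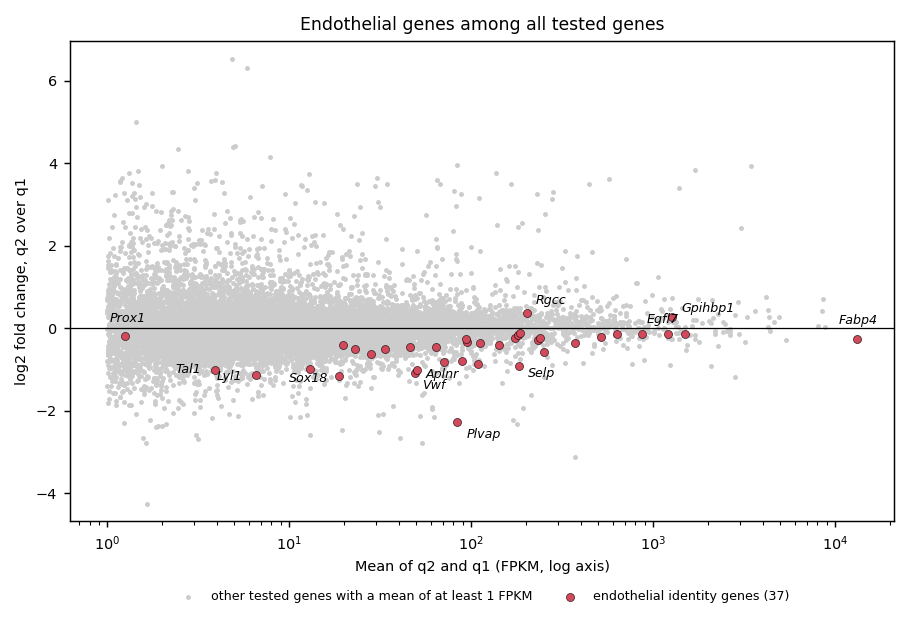
log2 fold change of q2 over q1 against the mean of both conditions in FPKM (log axis), red for the 37 endothelial genes and grey for other tested genes with a mean of at least 1 FPKM and both conditions above 0. The red points lie below 0 except Rgcc and Gpihbp1, and come closer to 0 towards the right, where Fabp4 (log2 -0.26) is the furthest.

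Endothelial genes outside the 37 lay on both sides of 0. None of 29 tested genes was called by the authors' Cuffdiff q. By the unadjusted p 1 of 29 (Rasip1, a regulator of vessel tube formation) lay below 0.05, lower in q2. Of all tested genes 2.27% were lower at that threshold. Of the 29, 20 were below 0, where 51.3% of all tested genes were, and the median log2 fold change was -0.24. Rasip1 was at 38.9 FPKM in q2 and 68.6 FPKM in q1 (log2 -0.82, p = 0.0441, q = 0.798 in the authors' deposited table). Cd36, the fatty acid translocase, was at 1518 FPKM in q2 and 1484 FPKM in q1 (log2 0.03), and Tm4sf1 at 580 FPKM in q2 and 512 FPKM in q1 (log2 0.18), in the authors' deposited table. With both conditions scaled to equal totals, which shifts every gene alike by -0.12, 23 of 29 lay below 0, Cd36 among them, where 61.9% of all tested genes then did. Whether the 37 and the 29 differ as lists was not tested.

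Genes known from capillaries, veins and arteries were looked at separately. The capillary enzyme gene Car4 was at 258 FPKM in q2 and 212 FPKM in q1 (log2 0.28), and Cd300lg, another capillary gene, at 183 FPKM in q2 and 164 FPKM in q1 (log2 0.16), in the authors' deposited table. Other genes known from muscle capillaries lay below 0, with Aqp1, a water channel, at 368 FPKM in q2 and 559 FPKM in q1 (log2 -0.61), and the factor genes Meox2 at log2 -0.31 and Tcf15 at log2 -0.76 in the authors' deposited table. Capillary genes therefore lay on both sides of 0, and those named here were chosen after their values were seen. The venous chemokine receptor gene Darc was at 154 FPKM in q2 and 349 FPKM in q1 (log2 -1.18, p = 0.0126, q = 0.502 by Cuffdiff in the authors' deposited table). Nrp2, a receptor of venous and lymphatic endothelium, was at 9.92 FPKM in q2 and 20.1 FPKM in q1 (log2 -1.02, p = 0.0116, q = 0.486 in the authors' deposited table). Of 6 tested venous genes 5 were below 0, with a median of -0.45, where 51.3% of all tested genes were below 0. By the unadjusted Cuffdiff p, 2 of 6 lay below 0.05, both lower. Of all tested genes 2.27% were lower at that threshold. The venous factor Nr2f2 itself was at 52.8 FPKM in q2 and 70.3 FPKM in q1 (log2 -0.41 in the authors' deposited table), and Vcam1 at 65.1 FPKM in q2 and 90.8 FPKM in q1 (log2 -0.48). Vcam1 is also counted among the satellite cell genes below, and from which cells its RNA came was not tested. Of 10 arterial genes 9 were below 0, with a median of -0.24 and none at an unadjusted p below 0.05; Nrp1 was at 223 FPKM in q2 and 263 FPKM in q1 and Gja4, an arterial connexin, at 69.3 FPKM in q2 and 82.1 FPKM in q1 in the authors' deposited table. No gene of these lists was called, so no difference between vessel types was shown.

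**Figure D4:**
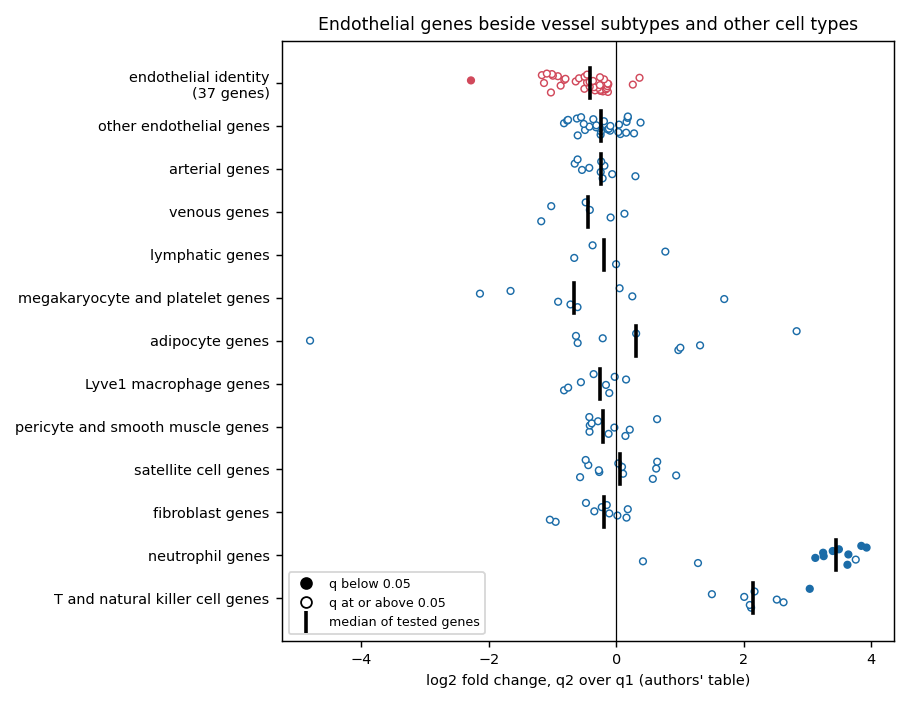
log2 fold change of q2 over q1 for the tested genes of each list, filled where q lies below 0.05, with the list median as a black bar. The endothelial lists lie mostly left of 0, with the median of the 37 genes at -0.42, while neutrophil genes (median 3.44) and T and natural killer cell genes (median 2.14) lie right of it.

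Among markers of other cell types, the neutrophil genes showed the most calls. Of 12 neutrophil genes 9 rose in q2, where 0.498% of all tested genes were called higher, and the 12 summed to 15495 FPKM in q2 and 1202 FPKM in q1. All 12 were above 0, and 10 had an unadjusted p below 0.05 in that direction, against 3.72% of all tested genes. S100a8 was at 6478 FPKM in q2 and 426 FPKM in q1 in the authors' deposited table. FPKM are scaled to library size, but no source used here gives the library normalization. The part of the neutrophil transcripts in the lower endothelial values was not tested.

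Vessel-associated and connective tissue cells showed no called gene. Of 10 pericyte and smooth muscle genes 7 were below 0 (median -0.20, none at an unadjusted p below 0.05), and their sum was 4723 FPKM in q2 and 3665 FPKM in q1, most of it from Rgs5, at 3553 FPKM in q2 and 2279 FPKM in q1 in the authors' deposited table. Of 10 fibroblast genes 7 were below 0 (median -0.19), and they summed to 5746 FPKM in q2 and 6717 FPKM in q1. By the unadjusted p, 2 of the 10 lay below 0.05, both lower, where 2.27% of all tested genes were lower at that threshold. Of 12 satellite cell genes 5 were below 0 (median 0.06), and they summed to 551 FPKM in q2 and 485 FPKM in q1. Of these, 1 had an unadjusted Cuffdiff p below 0.05, where 3.72% of all tested genes were higher at that threshold. It was the chemokine receptor gene Cxcr4, at 18.8 FPKM in q2 and 9.78 FPKM in q1 (log2 0.94, p = 0.0230 in the authors' deposited table). From which cells the Cxcr4 RNA came was not tested. Under that scaling to equal totals, 8 of 12 were below 0 with a median of -0.06, against 61.9% of all tested genes below 0. No gene of these 3 lists was at 0 in either condition.

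Some of the 37 are also expressed by other cells. Fat cells also express Fabp4, and their genes ranged widely. Adipoq, the adipokine that defines them, was at 4.63 FPKM in q2 and 2.36 FPKM in q1 and Plin1, which was not tested, at 0.37 FPKM in q2 and 0.07 FPKM in q1 in the authors' deposited table. Lpl, the lipoprotein lipase that muscle also makes, was at 258 FPKM in q2 and 299 FPKM in q1, and Pparg at 52.5 FPKM in q2 and 42.3 FPKM in q1 in the authors' deposited table. Car3 was at 239 FPKM in q2 and 119 FPKM in q1 (log2 1.01, p = 0.0115, q = 0.485 in the authors' deposited table). From which cells the Car3 RNA came was not tested. Of 9 tested adipocyte genes 4 were below 0, where 51.3% of all tested genes were, and none was called. By the unadjusted Cuffdiff p, 1 of 9 (Car3) lay below 0.05, where 3.72% of all tested genes were higher at that threshold. The 10 listed summed to 606 FPKM in q2 and 489 FPKM in q1, and their part in the Fabp4 value was not tested. Of the platelet and megakaryocyte genes that could accompany Vwf, Selp and Tal1, Itga2b was at 2.17 FPKM in q2 and 3.57 FPKM in q1 and Gp9 at 1.40 FPKM in q2 and 2.13 FPKM in q1 in the authors' deposited table. Ppbp, a platelet chemokine, was at 1.93 FPKM in q2 and 8.49 FPKM in q1 (log2 -2.14, p = 0.00525, q = 0.331 in the authors' deposited table). Of 8 tested genes of that list 5 were below 0, with a median of -0.66, where 51.3% of all tested genes were below 0. The unadjusted Cuffdiff p lay below 0.05 for 2 of 8 (Ppbp and Itgb3), both lower in q2. At that threshold, 2.27% of all tested genes were lower. Itgb3 was at 1.97 FPKM in q2 and 3.71 FPKM in q1 (log2 -0.91 in the authors' deposited table). None of the 8 was called. The 12 listed summed to 340 FPKM in q2 and 298 FPKM in q1, nearly all of it Pf4. Without 10 genes known from such other cells (Vwf, Selp, Tal1, Lyl1, Fabp4, Lyve1, Cd34, Cav1, Cav2 and Ets1), 25 of 27 lay below 0, with a median of -0.37. The 27 are not free of other cells, as they still hold the platelet endothelial molecule Pecam1 and Ly6c1, whose reads can be shared with Ly6c2.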

How the data were processed

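RNA-seq of Sdc4-positive cells was deposited by the authors as 1 table with the column layout of Cuffdiff. TopHat2 2.0.9 and Cufflinks 2.2.1 are named in the submitters' processing notes; no source used here gives the annotation, the library normalization or the strand setting. Per the file headers, the authors deposited 1 level per gene and condition; no unit is named, and Cuffdiff writes FPKM. A log2 value of q2 over q1 was deposited by the authors beside the 2 levels and follows from them. The score the authors deposited is the statistic of their test and is not used here. Their p-value and q-value were deposited for each gene. The notes name mm9, but all 37 positions overlap the RefSeq gene of the same symbol in GRCm38, so positions are given in GRCm38, 1-based.

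No test between samples was run: the authors' q-value below 0.05 is the call, and it equals the p-value adjusted by the Benjamini-Hochberg method over 14858 tested genes. Depth per sample and the spread between samples are unknown from these values, and the labels do not say whether samples came from separate mice. The adjustment code was tested on simulated data. Lists were summarised by counts, sums and medians in Python 3.11.15 with pandas 2.3.3; genes listed at 0 in a condition stay out of medians. Alternatives covered the q threshold, a minimum of 1 FPKM, pseudocounts of 1 and 0.1, centring, and genes known from other cells; scaling to equal FPKM totals and leaving out Plvap were chosen after seeing the data. The 37 genes, the other lists and the role groups were chosen with earlier results of these data known. All 37 are named; of other lists, called genes, the 2 with the highest mean and those with an unadjusted p below 0.05 could be named, and other named genes were chosen after their values were seen.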

Additional observations from a re-analysis of the deposited data

How the results depend on the processing

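The number of the 37 genes called was 1 at a Cuffdiff q below 0.1 and also when genes under 1 FPKM in the higher condition were left out before adjustment, 0 at a q below 0.01, 0 without Plvap, and 9 by the unadjusted p below 0.05. No gene of the whole table has a q below 0.01, and the count called in the other lists was 10 at 0.05 and 0 there. The median log2 fold change of the 37 was -0.42, and -0.40 with a pseudocount of 1, -0.40 when centred on all tested genes, -0.37 without the 10 genes listed as known from other cells, -0.39 without Plvap, -0.53 when both conditions were scaled to equal FPKM totals and -0.50 when those totals left out the neutrophil genes. Equal totals shift every log2 fold change by -0.12, and the median of all tested genes to -0.13, with 61.9% of them below 0. With all 37 genes kept, 35 lay below 0 in these settings, which was largely fixed by how they are built: a pseudocount cannot turn a sign, no gene of the 37 lies under 1 FPKM, and equal totals move all genes down. Of the other lists, equal totals put 8 of 10 fibroblast and 6 of 8 megakaryocyte genes below 0, against 7 and 5 as deposited. No paired analysis was possible because the columns hold pooled conditions without replicate numbers, and no sample could be left out for the same reason. The lack of a call does not show that a gene was equal in both conditions.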

Other observations

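The 37 genes lie on 15 chromosomes, and 5 pairs of them are next to each other within 1 Mb. The caveolin genes Cav2 and Cav1 are 17.3 kb apart on chromosome 6, and their log2 fold changes were -0.21 and -0.13 in the authors' deposited table. The selectin genes Sele and Selp are 57.6 kb apart on chromosome 1, at -0.50 and -0.92 there. Robo4 and Esam, 114 kb apart on chromosome 9, were at -0.26 and -0.14, and Icam2 and Pecam1, 272 kb apart on chromosome 11, at -0.13 and -0.37. Ly6c1 and Gpihbp1, 548 kb apart on chromosome 15, were at -0.13 and 0.26, the only pair on both sides of 0.

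The order of the 37 genes by level was nearly the same in both conditions, with a Spearman correlation of 0.98 between q2 and q1 levels, given as a description.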
